A study of Mus musculus with 3 samples.

Results

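The transcripts of 8 adaptor proteins that bring the CCR4-NOT deadenylase to mRNAs were examined for how they come down with YTHDF2 from embryonic stem cells (ESCs) of the mouse. These were Zfp36, Zfp36l1 and Zfp36l2 of the ZFP36 family, Btg1, Btg2 and Btg3 of the BTG family, and Tob1 and Tob2 of the TOB family. They were taken by gene name from a table of 49997 genes. All 8 passed the filter on low counts, which left 19601 genes for testing. Of the 8 transcripts, Btg1 was enriched in the YTHDF2 immunoprecipitation (IP), Zfp36l1 was depleted, and the other 6 did not reach a 2-fold difference.

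CCR4-NOT is the main deadenylase of the cytoplasm and shortens the poly(A) tail of mRNAs, which starts their decay. ZFP36 proteins bind AU-rich elements in 3′ untranslated regions (UTRs) through tandem zinc fingers and contact the scaffold subunit CNOT1 through their C-terminal end. BTG and TOB proteins hold the deadenylase subunits CNOT7 and CNOT8 through a shared N-terminal domain, and TOB proteins also bind the cytoplasmic poly(A)-binding protein. YTHDF2 binds RNA carrying N6-methyladenosine (m6A) and itself recruits CCR4-NOT through CNOT1. The values below concern the mRNAs that encode the adaptors, not the proteins.

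The data were RNA immunoprecipitation sequencing (RIP-seq) libraries, all from the mouse ESC line E14 after 24 h of doxycycline (Dox), namely 1 input library and 2 IP libraries made with an anti-YTHDF2 antibody. As described for the study, its cells carry a tdTomato reporter under the MERVL promoter and a Dux transgene switched on by Dox, whose induction gives rise to cells with features of the 2-cell (2C) embryo. All 3 libraries therefore come from induced cells, and neither untreated cells nor an IP with a control antibody were analysed here. Whether the 2 IP libraries came from separate cultures is not stated, so the spread between them may be technical. The p-values rest on that spread, which the fit shares over all tested genes, and on no spread between inputs. The input library held 36986994 counts, IP replicate 1 held 35259827 and IP replicate 2 held 35888743. All 8 pluripotency markers were detected, at between 456 and 1806 counts scaled to library size (CPM) in the input and summing to 8168 CPM there and to 8871 and 8806 CPM in the IP libraries. The 8 markers of fibroblast feeder cells summed to 29.2, 16.1 and 17.1 CPM in these libraries, mostly Thy1, and Col3a1 and Dcn were at 0 in all 3. The 5 markers of 2C-like cells, all detected, summed to 1675 CPM before IP and to 2771 and 2770 CPM after it. These sums were mostly Zscan4c (522 to 1245 and 1222 CPM) and Zscan4d (840 to 1192 and 1200 CPM). Usp17la changed little, from 276 to 285 and 297 CPM. Markers of ectoderm (4 genes) went from 20.5 to 46.1 and 42.9 CPM, and Sox1 among them from 10.1 to 36.4 and 32.7 CPM. Those of mesoderm (4 genes, mostly Eomes) went from 27.1 to 56.4 and 53.6 CPM, and those of endoderm (5 genes) from 9.08 to 15.4 and 10.1 CPM. The part of these markers in the results was not tested.

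To place the adaptor transcripts, their levels were first compared per length and library size (TPM). In the input Btg3 had the highest level, 97.5 TPM, followed by Zfp36l1 at 76, Tob1 at 64.9, Btg2 at 35.2, Btg1 at 30.9, Tob2 at 21.6, Zfp36l2 at 15.4 and Zfp36 at 12 TPM. Each level was above the median of all tested genes, 5.75 TPM, and the input had no replicate, so neighbours in this order cannot be set against a spread. In the IP libraries Btg3 was again the highest, at 86.5 and 85.8 TPM. Btg1 came next at 75.1 and 71.1 TPM. Tob1, Btg2 and Zfp36l1 could not be ordered there, since the 2 values of Tob1, 43.3 and 32.4 TPM, lay on both sides of those of the other two. The lowest level was that of Zfp36 in all 3 libraries.

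**Figure D1:**
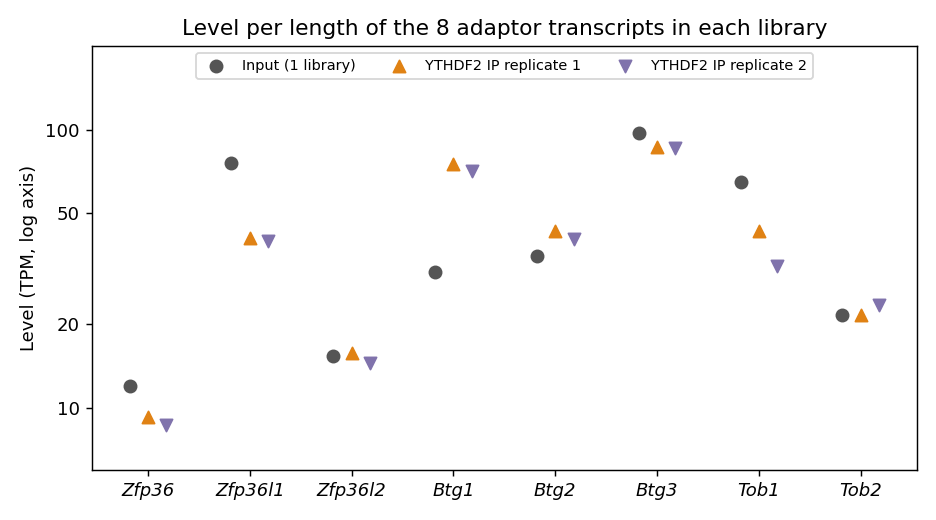
Level of each adaptor transcript in TPM on a log axis, with 1 point for each of the 3 libraries. Btg1 lies higher in both IP libraries (75.1 and 71.1 TPM) than in the input (30.9 TPM), as does Btg2 by less. Zfp36, Zfp36l1, Btg3 and Tob1 lie lower in both, and Zfp36l2 and Tob2 have IP values on both sides of the input.

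To determine which of the adaptor transcripts were pulled down, the IP libraries were set against the input in edgeR (quasi-likelihood F test over all tested genes), and genes were called where the adjusted p was under 0.05 and the difference exceeded 2-fold. Of the 8 adaptor transcripts 1 was enriched and 1 was depleted. By the same rule 15% of all tested genes were enriched and 13% were depleted, or 28% in either direction, so 2 of 8 lies near the background. At any fold, 5 of the 8 passed the adjusted p-value, 1 higher and 4 lower in IP, against 28.4% and 28.9% (57.2% together) of all tested genes. Under scaling to TPM the same count was 2 higher (Btg1 and Btg2) and 2 lower (Zfp36l1 and Tob1), under DESeq2 1 higher and 3 lower, and with a fixed dispersion of 0.1 none passed. Both IP libraries lay above the input for 2 of the 8 and below it for 6 of the 8, compared with 44.2% and 45.3% of all tested genes, which leaves 89.5% with both IP libraries on the same side. By TPM instead, Zfp36l2 (15.4 to 15.7 and 14.5) and Tob2 (21.6 to 21.5 and 23.5) lay on both sides of the input. The median log2 fold change was −0.26 over the 8 transcripts and 0.0063 over all tested genes, whose quartiles were −0.72 and 0.81. Scaling by library totals raised the median of all genes by 0.0957 and put 60.3% of all calls on the side of enrichment, and scaling to TPM raised it by 0.151 and put 64.0% there, compared with 53.6% under the scaling used here (TMM).

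**Figure D2:**
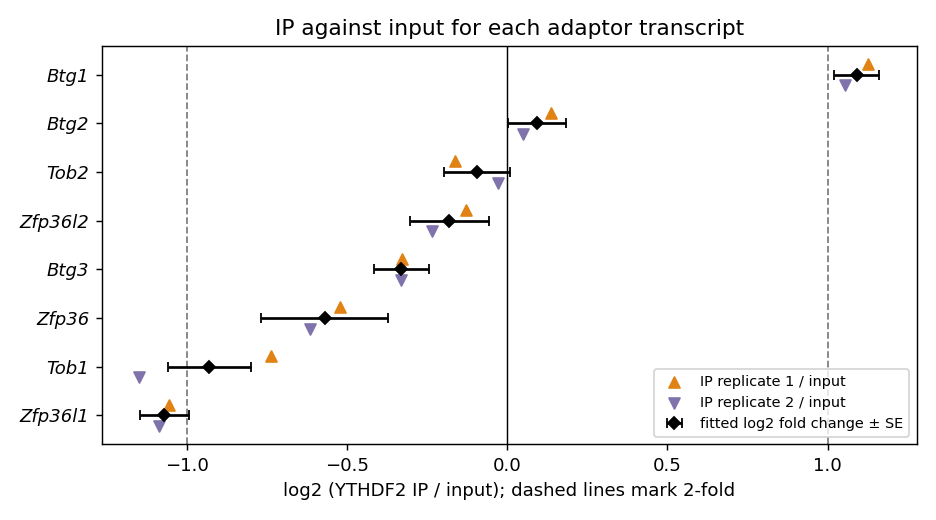
Log2 ratio of each YTHDF2 IP library to the input (triangles) and the fitted log2 fold change with its SE (diamonds) for the 8 transcripts, in order. Btg1, at 1.13 and 1.05, and Zfp36l1, at −1.06 and −1.09, lie beyond the dashed 2-fold lines in both IP libraries, and Tob1 does so in IP replicate 2.

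The ZFP36 transcripts were described first. They encode proteins that bind the sequence UAUUUAU in target mRNAs, and ZFP36 (also called tristetraprolin) is known to act on an element in its own mRNA. The same letters, written as TATTTAT, were searched on the sense strand of the exons of every gene. Each of the 3 ZFP36 transcripts held 3 copies, all in the 3′ UTR, while 37.3% of the 15201 tested protein-coding genes held at least 1 copy and 8.41% held 3 or more. The copy nearest to the stop codon is shown for each adaptor transcript that has one, in capitals with its flanks, from the mm10 genome (GRCm38.p6).
Zfp36: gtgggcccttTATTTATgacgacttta
Zfp36l1: tatcaaaacgTATTTATtgccaaacta
Zfp36l2: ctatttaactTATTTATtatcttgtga
Btg2: aatgaagagcTATTTATacatgttttt
Btg3: tggacttgagTATTTATatattgtgca
Tob2: atcacctgctTATTTATgtacgaggtt

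These windows lie in the 3′ UTRs on the minus strand at chr7:28376967-28376993 (Zfp36), chr12:80108423-80108449 (Zfp36l1), chr17:84184915-84184941 (Zfp36l2), chr1:134077250-134077276 (Btg2), chr16:78360042-78360068 (Btg3) and chr15:81849861-81849887 (Tob2). Their motifs start between 103 bases (Btg2) and 1150 bases (Zfp36l1) after the stop codon. In all, 6 of the 8 adaptor transcripts held the motif. Btg1 and Tob1 held none in their annotated exons.

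Zfp36l1 (chromosome 12, 80107760 to 80113013, minus strand, mm10) was the depleted transcript. It was counted 3942 times in the input, 1936 times in IP replicate 1 and 1924 times in IP replicate 2. Both IP libraries were below the input by over 2-fold and differed from each other by 0.03 on the log2 scale. In the fit its level was 2.1-fold lower after IP (log2 −1.07 ± 0.076, SE; edgeR adjusted p = 3.91e-15). The value lay close to the 2-fold line, and Zfp36l1 no longer passed it when scaled by library totals (−0.97) or to TPM (−0.92), which moved it about as far as the median of all genes. Over the alternatives its adjusted p lay between 1.44e-22 and 0.164, the latter with a fixed dispersion of 0.1.

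Zfp36 (chromosome 7, 28376784 to 28379228, minus strand) was the least abundant of the 8, counted 369 times in the input and 262 and 249 times after IP. Both IP libraries lay below the input. The fitted value, −0.57 ± 0.199 (SE) on the log2 scale, passed in edgeR (adjusted p = 0.0137). It did not pass in edgeR under scaling to TPM (−0.42, adjusted p = 0.0704) or in DESeq2 (adjusted p = 0.193). Over all alternatives this p lay between 0.00974 and 0.522, the latter with the fixed dispersion. Zfp36l2 (chromosome 17, 84183924 to 84187947, minus strand) was counted 948 times in the input and 885 and 835 times after IP. At −0.18 ± 0.122 (SE) its log2 value did not pass the edgeR test (adjusted p = 0.216), and lay within 2 SE of 0. Within the family, Zfp36l1 made up 73.5% of the summed TPM before IP and 61.9% and 63.1% after it, and Zfp36l2 went from 14.9% to 23.9% and 23.1% of that sum, a description without a test.

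Zfp36l1 has a processed copy on the X chromosome, Zfp36l1-ps, whose exon matched it over 1231 bases at 93.8% identity. The copy had 21, 27 and 37 counts in the input and the IP libraries, so it held few of the reads of the pair. The rodent gene Zfp36l3 had 0, 10 and 0 counts and was not tested.

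The BTG transcripts differed more among themselves. BTG proteins slow proliferation in many cell types, and BTG2 is a known target of p53. Btg1 (chromosome 10, 96617001 to 96622813, plus strand) was the enriched transcript, counted 2691 times in the input and 5999 and 5789 times after IP. Both IP libraries were over 2-fold above the input. In the fit it was 2.13-fold higher after IP (log2 1.09 ± 0.07, SE; edgeR adjusted p = 2.64e-16), above the value of 81.4% of all tested genes. Over the alternatives its adjusted p lay between 1.77e-30 and 0.195, the latter with the fixed dispersion, where its call was lost.

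Btg2 (chromosome 1, 134074865 to 134079155, minus strand) was counted 1888 times in the input and 2118 and 2025 times after IP. Its log2 value was 0.09 ± 0.09 (SE), which did not pass the edgeR test (adjusted p = 0.392). Under scaling to TPM it did, at 0.25 with an adjusted p of 0.0181, and over the alternatives this p lay between 0.0181 and 0.932. Btg3 (chromosome 16, 78359860 to 78377181, minus strand) was counted 2421, 1969 and 1991 times. It was lower after IP at less than 2-fold, with a log2 value of −0.33 ± 0.085 (SE; edgeR adjusted p = 0.00107). It did not pass under scaling to TPM (−0.18, adjusted p = 0.0751), and the alternatives put this p between 0.000466 and 0.736, the latter with the fixed dispersion. Its IP libraries differed by 0.005 on the log2 scale, and the 3 BTG transcripts did not overlap in their ratios from each IP library. These ratios share a single input library, whose error they do not show.

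The values of Btg3 are uncertain, because the transcribed pseudogene Gm7334 (chromosome 17, 50698525 to 50699892) matched its exons over 1360 bases at 99.9% identity and reads that map to several places had been left out. Gm7334, named after its values were seen, was counted 52 times in the input and 180 and 81 times after IP, a log2 value of 1.29 ± 0.425 (SE; edgeR adjusted p = 0.011). That value rests mainly on IP replicate 1, and the 81 counts of IP replicate 2 stayed below a 2-fold difference from the input. Btg1 resembles Btg1b and Btg1c on the X chromosome at 87.5% and 87.4% identity. Both had no counts in any library, and neither had Btg4, an oocyte member of the family. A count of 0 allows up to 3 counts, or 0.0811 CPM in the input, and covers counting error only.

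TOB proteins join CCR4-NOT to the poly(A)-binding protein on the tail. Tob1 (chromosome 11, 94209842 to 94215495, plus strand) was counted 2810 times in the input, 1719 times in IP replicate 1 and 1312 times in IP replicate 2. Both IP libraries were below the input, and they differed from each other by 0.41 on the log2 scale, the widest gap of the 8 transcripts. For comparison, the SD of this gap was 0.205 over the 12620 tested genes whose counts averaged 100 or more. In the fit it was 1.9-fold lower after IP (log2 −0.93 ± 0.13, SE; edgeR adjusted p = 3.45e-05), short of the 2-fold threshold. A single library sets its side of that threshold, since the value was −1.15 when IP replicate 1 was left out and −0.73 when IP replicate 2 was, both values without a test. The alternatives put its adjusted p between 1.32e-09 and 0.24, the latter with the fixed dispersion. Tob2 (chromosome 15, 81848270 to 81858326, minus strand) was counted 1502, 1370 and 1524 times, and its log2 value of −0.09 ± 0.103 (SE) did not pass the edgeR test (adjusted p = 0.459). Scaled by library totals (0.0018) or to TPM (0.057) its value lay just above 0, moved about as far as the median of all genes.

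In the order of log2 fold changes, from Btg1 to Zfp36l1, the ranges of the 2 IP libraries overlapped for 2 of the neighbouring pairs. These were Tob2 with Zfp36l2 and Tob1 with Zfp36l1. The ranges leave out the error of the single input library, so a pair without overlap is not thereby told apart. Btg2 (0.09 ± 0.09, SE) and Tob2 (−0.09 ± 0.103, SE) did not overlap, for example, although neither passed the edgeR test. Summed over each family, ZFP36 transcripts had 5259 counts before and 3083 and 3008 counts after IP, and TOB transcripts had 4312, 3089 and 2836. For BTG they were 7000, 10086 and 9805, and Btg1 went from 18.9% of the summed TPM of this family to 36.7% and 36.0% after IP. The sum over all 8 was 16571 before and 16258 and 15649 after IP.

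The transcripts nearest to Btg1 by Euclidean distance of log2 CPM over the 3 libraries were Pym1 (distance 0.0265) and Fam104a (0.0332). Those nearest to Zfp36l1 were Mphosph6 (0.0216) and Dera (0.0437). With 3 libraries such likeness holds for level and IP ratio only.

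What the adaptor genes share beyond their role was then described. No exon of any of the 8 overlapped another gene of the table, so the counting without strand did not mix them with antisense genes listed there. Most are compact genes. After merging of overlapping exons, 6 of the 8 had 2 exons (all but Btg3 with 6 and Tob1 with 3), where the median over tested protein-coding genes was 10. Both RefSeq mRNA models of Tob1, a curated and a predicted one, have 2 exons each, and those of Btg3 have 5. Among the 613 tested protein-coding genes with 2 exons, the median log2 fold change was 0.89, with quartiles of 0.057 and 1.67, and 37.5% were enriched and 3.59% depleted. Btg1 and Btg2 lay between these quartiles. Tob2, Zfp36l2, Zfp36 and Zfp36l1 lay below the lower one, and 36 of the 613 genes (5.87%) had a lower value than Zfp36l1. Tob1, at −0.93, would lie below that quartile too if placed by its mRNA models.

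**Figure D3:**
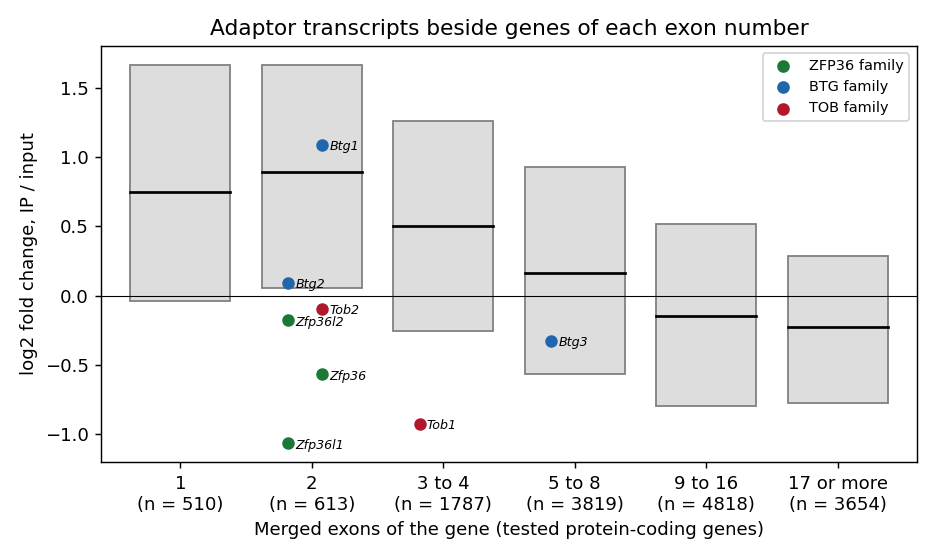
Log2 fold change of IP over input for tested protein-coding genes by number of merged exons (grey boxes span the quartiles, black lines are medians) with the 8 adaptor transcripts as coloured points. The median falls from 0.89 at 2 exons to −0.23 at 17 or more, and 4 of the 6 adaptor transcripts with 2 exons lie below the box of their class.

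GC content also moved with the IP ratio over all genes. From the lowest to the highest of 10 equal classes of protein-coding genes by GC content, the median log2 fold change went from −0.69 to 0.65. Btg1 had a GC content of 43.0%, in the second class, where the median was −0.49, the upper quartile 0.22 and 5.79% of genes were enriched. With the trend on GC content removed, its log2 fold change was 1.55. Zfp36l1, at 49.0% GC, lay in the fifth class, where the median was −0.0083, the lower quartile −0.63 and 10.1% of genes were depleted, and its value was −1.07 after the trend was removed. Zfp36, with a GC content of 53.9%, went from −0.57 to −0.83, Zfp36l2 from −0.18 to −0.47 and Tob2 from −0.09 to −0.32. Tob1 moved toward 0, from −0.93 to −0.72, as did Btg3, from −0.33 to −0.20, and Btg2, from 0.09 to 0.05. The adjusted p-values were not computed again for these values. The part of GC content and exon number in these ratios was not tested further.

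**Figure D4:**
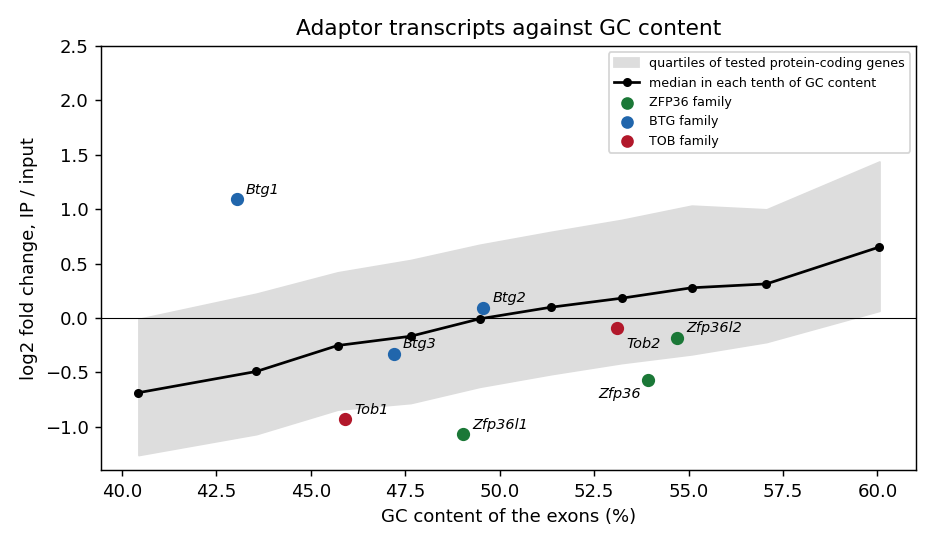
Log2 fold change of IP over input against exonic GC content. The black line joins the medians and the grey band the quartiles of tested protein-coding genes in 10 classes of GC content, and coloured points are the adaptor transcripts. Btg1 (43.0% GC) lies above the band, and Zfp36l1 (49.0% GC), Zfp36 and Tob1 lie below it.

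Because YTHDF2 reads m6A, the letters GGAC, a frequent core of m6A sites, were counted on the sense strand of the exons. They occur in 99.6% of tested protein-coding genes, with a median of 4.1 per kb. The enriched Btg1 had 11 copies, or 2.2 per kb, the lowest density of the 8. The depleted Zfp36l1 had 16 copies, or 5.36 per kb, the highest density. Over all protein-coding genes the order ran the other way, with a median log2 fold change of −0.41 in the lowest of 4 classes of GGAC density and 0.34 in the highest, and GGAC density also follows GC content by its letters. For the 2 called transcripts, the first copy after the stop codon is shown in capitals.
Btg1: gccatagtttGGACagtacctttc
Zfp36l1: gggtagggagGGACccccccccat

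The first lies 201 bases after the stop codon of Btg1, at chr10:96618834-96618857 on the plus strand, and the second 15 bases after that of Zfp36l1, at chr12:80109561-80109584 on the minus strand. Whether either carries m6A in these cells was not measured in these libraries. Genes with TATTTAT had lower medians than those without, at 0.071 for no copy, −0.06 for 1 to 2 copies and −0.18 for 3 or more. Among the adaptor transcripts Btg1, which was higher in IP, and Tob1, which was lower, had no copy.

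The partners of the adaptors were set beside them, and the counts of each list stand against 15% of all tested genes enriched and 13% depleted. All 12 subunits of CCR4-NOT were tested, and none was enriched and 3 were depleted, with a median of −0.50. The lowest was Cnot1, the scaffold, at −1.56 ± 0.056 (SE), followed by Cnot10 at −1.17 ± 0.07 (SE) and the deadenylase subunit Cnot6l at −1.04 ± 0.186 (SE). The call of Cnot6l rests on IP replicate 2, where it was at −1.39, compared with −0.76 in the other IP library. Cnot1 has 49 merged exons and Cnot10 has 19. Among tested protein-coding genes with 17 or more, 5.04% were enriched and 15.6% were depleted. The part of exon number in these lists was not tested. The deadenylase subunits that BTG and TOB proteins hold, named like Cnot6l after their values were seen, were at −0.46 ± 0.104 (SE) for Cnot7 and 0.39 ± 0.068 (SE) for Cnot8. Of 20 other adaptors of CCR4-NOT 17 were tested, and 4 were enriched and 1 was depleted, with a median of 0.39. The highest were Nanos3, a germ cell RNA-binding protein with 37, 136 and 94 counts, at 1.59 ± 0.414 (SE) and Ythdf2, which encodes the protein pulled down, at 1.57 ± 0.068 (SE), and the other two, named after their values were seen, were Ythdf1 (1.47) and Nanos1 (1.14). Patl1, which links deadenylation to decapping, was depleted at −1.36 ± 0.103 (SE).

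Among 11 tested transcripts of poly(A)-binding proteins, their regulators and PAN2-PAN3, 2 were enriched and 1 was depleted, with a median of −0.26. Pabpn1, the nuclear poly(A)-binding protein, was at 1.94 ± 0.052 (SE), and Paip2b, an inhibitor of poly(A)-binding protein, at −1.27 ± 0.067 (SE). Pabpc1l was not counted in the input and was counted 22 and 12 times after IP, at least 5.52-fold higher against a floor of 3 counts in the input. It passed the filter on low counts through the IP libraries alone, so its call was largely fixed by the filter, which leaves Pabpn1 as the other enriched transcript of this list. Of the 13 other proteins that bind AU-rich elements, none was enriched and 4 were depleted, with a median of −0.64. The lowest were Ybx1 at −2.28 ± 0.044 (SE) and Hnrnpd at −1.75 ± 0.054 (SE), and the other two, named after their values were seen, were Hnrnpc (−1.24) and Khsrp (−1.18).

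Of 20 known mRNA targets of ZFP36 proteins 12 were tested, with a median of −0.23. Ier3, at 1.19 ± 0.206 (SE), was enriched and Ccnd1, the cyclin D1 transcript, was depleted at −1.05 ± 0.102 (SE). Zfp36 and Btg2 are themselves induced as immediate early genes in many cells, so that class was listed too. Of its 21 tested transcripts other than these, 11 were enriched and none was depleted, beside 15% and 13% of all tested genes. The median was 1.05. Jund, at 2.80 ± 0.055 (SE), and Ier5l, at 2.11 ± 0.072 (SE), were the highest. Both have 1 merged exon, and their GC contents are 62.7% and 70.9%. Of tested protein-coding genes 34.1% were enriched among those with 1 exon and 33.6% in the highest of 10 GC classes. The part of exon number and GC content in this list was not tested. Zfp36 (−0.57) and Btg2 (0.09) lay below the median of that list.

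**Figure D5:**
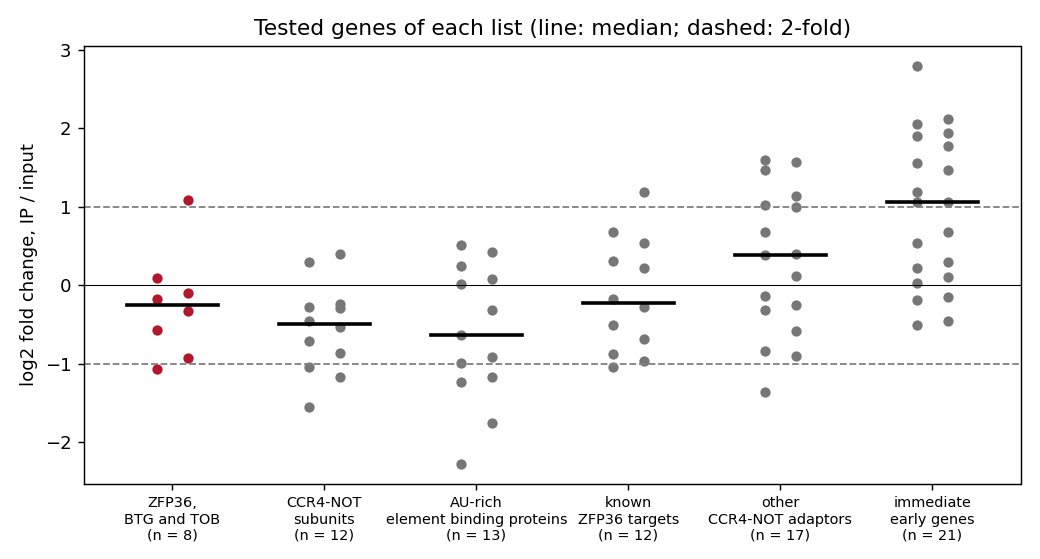
Log2 fold change of IP over input for the tested genes of 6 lists, with 1 point for each gene, black lines at the medians and dashed lines at 2-fold. The median of the 8 adaptor transcripts (−0.26) lies between those of the CCR4-NOT subunits (−0.50) and of the other adaptors (0.39), and that of immediate early genes is 1.05.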

How the data were processed

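RIP-seq counts of 1 input and 2 YTHDF2 IP libraries were used, grouped by sample titles. The deposited values are raw read counts for each gene. Per the file headers the authors obtained them with featureCounts 2.0.3 from mm10 RefSeq exons, without strand and with each mate counted on its own (even numbers made up 61.4% to 64.7% of counts from 1 to 100), so sampling noise exceeds what the counts imply. The submitters' processing notes name fastp 0.19.4, HISAT2 2.2.1 and DESeq2 1.40.2. Reads mapping to several places or genes were left out by that tool's defaults. The labels describe IP of Trizol-extracted RNA and the methods IP from lysate, which the counts cannot tell apart. The table had 0 columns of other samples and 0 rows without a gene name.

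Counts were fitted in R 4.3.3 with edgeR 4.0.16 after filterByExpr and TMM scaling (robust quasi-likelihood F test, Benjamini-Hochberg adjustment over 19601 genes, prior count 0.125, 1 residual degree of freedom from the IP libraries, common dispersion 0.00538). Ratios of single libraries used 0.5 added to each count. The SE came from the log2 fold change and its F statistic. TPM divides counts by exonic length and scales to the library. Sequences were read from GRCm38.p6, where 49629 of 49630 genes placed on 1 main chromosome had the same start and end, and copies were sought with blastn 2.17.0 over all exons. The 8 genes and the lists were chosen with earlier results of these data known. Named genes were the 8 members, their relatives, up to 2 called genes of each list in each direction, and the 2 genes nearest to the highest and the lowest member. Outside this rule Gm7334, Cnot6l, Cnot7, Cnot8, Ythdf1, Nanos1, Hnrnpc, Khsrp and single markers of cell types were named after their values were seen. Alternatives were DESeq2 1.42.0, other scalings, no filter, a fixed dispersion, halved counts, trends removed and left-out libraries, and, chosen after seeing the data, a fit without the robust option.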

Additional observations from a re-analysis of the deposited data

How the results depend on the processing

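No paired analysis was possible because the input library carries no replicate number and the 2 IP libraries cannot be matched to it. Variation between inputs was not measured. Of 13 alternatives, a fixed dispersion of 0.1 left 0 enriched and 0 depleted adaptor transcripts, and 1577 enriched and 1531 depleted genes against 2936 and 2543. The count of depleted adaptor transcripts was 0 with library totals only and 0 with scaling to TPM, where Zfp36l1 lost its call, and 2 with the length trend removed, where Tob1 (−1.03) was added. Removing a GC or length trend moved the fold changes only and kept the adjusted p-values of the fit as reported, so no test was run again. Leaving out 1 IP library gave 1 to 2, by fold alone and with no test, since no residual degree of freedom was left. The median log2 fold change of the 8 was −0.16 with library totals only, −0.10 with scaling to TPM and −0.39 with the GC trend removed, compared with −0.26, and −0.28 to −0.24 when 1 IP library was left out. Tob2 turned to 0.0018 with library totals only and 0.057 with scaling to TPM, while these scalings raised the median of all genes by 0.0957 and 0.151. The cause of the other changes was not tested. In the other alternatives the counts of called adaptor transcripts were as reported. Zfp36 had the fewest counts of the 8, 249 to 369.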
